A study of Mus musculus with 6 samples.

Results

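The 684 GABAergic nuclei described here were selected from the Foxr2 p53LOF library by their RNA, out of 2766 neuron nuclei and 10379 barcodes in that library and 22125 barcodes in all 3 libraries of the series. A barcode counted as a neuron nucleus when it had at least 1000 UMIs (unique molecular identifiers, each standing for 1 captured RNA molecule), a mitochondrial share of at most 5%, and at least 0.2% of its UMIs on Snap25, Syt1, Rbfox3, Celf4 and Grin2b together. It became a GABAergic nucleus when Gad1 and Gad2 had at least 3 UMIs together, Slc17a6 at most 1, Slc6a3 under 3, and Sim1, Nkx2-1 and Sfta3-ps under 2 together. The 1335 neuron nuclei with at least 2 Slc17a6 UMIs and at most 1 Gad1 or Gad2 UMI, called Slc17a6 nuclei, served as the comparison. The exclusions by Slc6a3, Sim1, Nkx2-1 and Sfta3-ps were not applied to the Slc17a6 nuclei. The levels of the genes named in these rules were fixed by the choice of nuclei and are no result, and RNA differences between the 2 classes are a description. Slc32a1 RNA and the chromatin counts were not used by the rule.

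The nuclei came from frozen brain tissue of C57BL/6J mice with brain lesions, profiled with an assay that reads RNA and open chromatin (ATAC) from the same nucleus. In both groups, plasmids were electroporated in utero into progenitors of the ganglionic eminences, the embryonic source of striatal neurons and cortical interneurons, and tissue was taken once neurologic symptoms appeared. Every library carried piggyBac vectors that drive Foxr2 with a V5 tag and GFP, and Akaluc with GFP, from the ubiquitous CAG promoter, together with the piggyBac transposase. Foxr2 p53LOF (1 library) also received Cas9 with a guide against p53. Foxr2 alone (2 libraries) did not receive that guide, and whether it received Cas9 with the control guide of the study is not given in the sources used here. The tissue was not sorted, so host cells are present beside electroporated ones, and the age and sex of the mice were not given in the sources used here. The count matrix of Foxr2 alone replicate 2 was not analysed here. With 1 library of each genotype analysed, no test between genotypes was made, and the 95% intervals in brackets below cover counting error only.

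GABAergic neurons release the inhibitory transmitter GABA, which Gad1 and Gad2 make from glutamate and which the carrier Slc32a1 loads into synaptic vesicles. Their place of birth is written in the transcription factors they keep: neurons from the ganglionic eminences rely on Dlx genes, whereas GABAergic neurons of the midbrain, thalamic border and hindbrain rely to differing degrees on Gata and Tal factors, with Pax, En, Otx and Sox14 genes marking positions along the brainstem axis. Slc17a6, the vesicular glutamate transporter of subcortical glutamatergic neurons, is normally used by other cells.

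The GABAergic nuclei held a median of 10634.5 UMIs (2596 to 105817) and 8457 ATAC counts in peaks, close to the 10173 UMIs and 8678 counts of the Slc17a6 nuclei. In all they contributed 8365322 UMIs and the Slc17a6 nuclei 15519048. Of the 772 neuron nuclei with at least 3 Gad UMIs, 81 were dropped for Slc17a6, 5 for Slc6a3 and 2 for Sim1, Nkx2-1 or Sfta3-ps, and 651 of the 684 members had no Slc17a6 UMI. Another 747 neuron nuclei fell in neither class. Scrublet called 58 of the 684 members doublets (8.48%), against 99 of the 1335 Slc17a6 nuclei (7.42%), and these were kept in the main values. Barcodes are reused between libraries: 7 of the 684 members had a barcode that also occurred in Foxr2 alone replicate 1, where 1 of them was also a GABAergic nucleus.

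The third marker of the class, Slc32a1, had 664 UMIs in the GABAergic nuclei (79.4 CPM, UMIs per 1000000 UMIs of the class [73.5, 85.6]) and 35 in the Slc17a6 nuclei (2.26 CPM [1.57, 3.14]). At least 1 Slc32a1 UMI was found in 397 of the 684 nuclei (58.0%), against 25 of the 1335 Slc17a6 nuclei (1.87%). With every nucleus thinned to 1000 UMIs the share was 8.04% [6.11, 10.3] and 0.225%. Nuclei that should lack the gene gave thinned shares of 0.353% (1700 oligodendrocyte nuclei, median 2558.5 UMIs) and 0.104% (1924 immune nuclei, median 2798 UMIs). Here and below, both sets were chosen with under 0.2% of their UMIs on the neuron genes of the rule. That condition also limits the free neuronal RNA in them. Against the Slc17a6 nuclei, the label of the class therefore held for the marker the rule left out. Just outside the rule, the 67 nuclei with 2 Gad UMIs had Slc32a1 at 51.9 CPM [35.7, 72.8]. Just inside it, the 71 nuclei with 3 Gad UMIs had 87.6 CPM [65.8, 114], and the 525 with 5 or more had 80.8 CPM [74.3, 87.8]. The 318 neuron nuclei with no Gad UMI that met the other conditions were at 5.53 CPM [3.16, 8.98].

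Chromatin at the transmitter genes, which played no part in the selection, separated the classes in the same direction as their RNA. Summed over the peaks in the gene and 2 kb on each side, the Slc32a1 window held 372 ATAC counts in the GABAergic nuclei and 98 in the Slc17a6 nuclei, or 65.6 and 8.77 per 1000000 peak counts, a log2 ratio of 2.90 [2.44, 3.39]. At Gad2 the 2 classes had 414 and 135 counts and a log2 ratio of 2.59 [2.18, 3.00], and at Gad1 303 and 255 counts and 1.23 [0.88, 1.58]. The Slc17a6 window went the other way, with 77 counts against 960 and a log2 ratio of -2.68 [-3.20, -2.20]. Over all 21454 windows with enough counts, 154 (0.718%) were higher past 2-fold with an interval off 0 and 156 (0.727%) lower. Widening the Slc32a1 window to 10 kb on each side lowered its log2 ratio to 1.44.

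At the level of single peaks, 69365 were compared, of which 1617 (2.33%) were higher past 2-fold in the GABAergic nuclei and 2109 (3.04%) lower. Over so many peaks with few counts, a 95% interval off 0 marks some through counting error alone. With a minimum of 100 counts in place of 50 the numbers were 318 and 1101. Without subclusters 7 to 9, described below, they were 1483 and 2058. Among the higher peaks, 6.00% lay within 1 kb of a transcription start site, against 19.7% of the peaks compared and 3.89% of the lower ones. The 8 peaks with the highest ratios were an intron of Nrxn3, a peak at Gata3, an intergenic peak whose nearest start site is that of Ric3, one upstream of Tal1, 2 at Slc32a1, the start of Gad2 and an intron of Mtus1. The Nrxn3 peak had the highest ratio, with 119 counts in 64 GABAergic nuclei against 7 counts in 4 Slc17a6 nuclei, a log2 ratio of 4.89 [3.46, 6.81]. Nrxn3 encodes a presynaptic adhesion molecule, and its RNA stood at 5376 CPM in the GABAergic and 1319 CPM in the Slc17a6 nuclei. The peak upstream of Tal1 had 54 counts in 27 nuclei against 11 counts in 7. The peak at the start site of Slc32a1 had 261 counts in 123 nuclei against 59 in 34, and the one at the start of Gad2 had 231 in 108 against 54 in 29. Of the 8 lowest peaks, the start of Slc17a6 had the most counts, 8 in the GABAergic nuclei against 387 in the Slc17a6 nuclei.

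The middle 300 bases of 7 of these regions are printed here because they are the most differing peaks at GABAergic genes, or among the 8 highest of all, that overlap no annotated exon. The Gad1 peak had 139 counts in the GABAergic nuclei against 66 in the Slc17a6 nuclei, and the Sox14 peak 46 against 16. They are on the plus strand of mm10, the build of the deposited peaks, read from the reference of the same assembly (GRCm38). The Slc32a1 region lies 4047 bases from the start of Slc32a1, in the noncoding gene Gm14204, and the Gad1 region in a Gad1 intron that Gad1os also spans. The Tal1 region lies 8325 bases and the Sox14 region 7265 bases from the start of the gene, outside annotated genes. Capitals mark matches to the searched motifs.
Slc32a1 upstream (chr2:158606421-158606720): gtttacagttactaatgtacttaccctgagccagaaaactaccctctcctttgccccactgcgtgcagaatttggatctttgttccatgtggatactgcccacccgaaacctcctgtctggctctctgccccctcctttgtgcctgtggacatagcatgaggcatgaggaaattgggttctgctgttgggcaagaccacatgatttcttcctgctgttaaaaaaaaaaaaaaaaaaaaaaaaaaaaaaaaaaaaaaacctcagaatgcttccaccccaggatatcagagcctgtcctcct
Gad1 intron (chr2:70558174-70558473): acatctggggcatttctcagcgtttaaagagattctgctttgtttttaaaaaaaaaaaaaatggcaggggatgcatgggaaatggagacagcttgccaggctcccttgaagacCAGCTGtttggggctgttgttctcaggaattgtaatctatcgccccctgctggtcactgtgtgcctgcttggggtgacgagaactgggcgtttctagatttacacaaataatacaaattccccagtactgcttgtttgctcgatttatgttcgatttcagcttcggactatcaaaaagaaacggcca
Tal1 upstream (chr4:115047802-115048101): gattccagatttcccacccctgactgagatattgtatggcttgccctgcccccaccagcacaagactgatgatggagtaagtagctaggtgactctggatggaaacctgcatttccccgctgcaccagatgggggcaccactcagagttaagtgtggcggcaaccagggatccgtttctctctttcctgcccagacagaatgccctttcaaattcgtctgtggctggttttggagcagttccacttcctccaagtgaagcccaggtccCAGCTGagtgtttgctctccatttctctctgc
Sox14 intergenic (chr9:99868606-99868905): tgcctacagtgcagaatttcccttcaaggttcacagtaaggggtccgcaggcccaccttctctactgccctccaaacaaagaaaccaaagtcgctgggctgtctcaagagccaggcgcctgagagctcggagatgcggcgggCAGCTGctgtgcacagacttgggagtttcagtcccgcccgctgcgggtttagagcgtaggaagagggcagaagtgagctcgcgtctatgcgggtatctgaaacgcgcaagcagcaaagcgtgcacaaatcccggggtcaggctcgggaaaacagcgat
Nrxn3 intron (chr12:88727495-88727794): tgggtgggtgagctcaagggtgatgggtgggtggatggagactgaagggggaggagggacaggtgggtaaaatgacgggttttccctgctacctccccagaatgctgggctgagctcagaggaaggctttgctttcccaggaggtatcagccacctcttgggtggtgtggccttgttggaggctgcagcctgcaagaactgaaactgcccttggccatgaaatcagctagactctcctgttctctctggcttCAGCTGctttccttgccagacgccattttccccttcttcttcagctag
Ric3 intergenic (chr7:109114914-109115213): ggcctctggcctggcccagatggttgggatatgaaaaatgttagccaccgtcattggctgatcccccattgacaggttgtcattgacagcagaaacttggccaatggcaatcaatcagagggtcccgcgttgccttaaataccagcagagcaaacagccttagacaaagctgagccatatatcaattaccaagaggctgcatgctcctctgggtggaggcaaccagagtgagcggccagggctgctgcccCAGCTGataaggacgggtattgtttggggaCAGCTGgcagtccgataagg
Mtus1 intron (chr8:41099351-41099650): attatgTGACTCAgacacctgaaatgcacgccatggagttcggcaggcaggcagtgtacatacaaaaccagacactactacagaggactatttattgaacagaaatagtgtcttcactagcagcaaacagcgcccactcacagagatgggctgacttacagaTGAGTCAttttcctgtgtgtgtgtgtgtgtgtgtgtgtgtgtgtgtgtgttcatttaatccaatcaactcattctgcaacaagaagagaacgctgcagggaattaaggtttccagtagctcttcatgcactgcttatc

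The searched motifs were AGATAA, a string bound by GATA factors, CAGCTG, an E-box of the kind bound by Tal1 and other basic helix-loop-helix factors, TAATTA, a core of homeodomain sites, and TGACTCA, the AP-1 site. Both strands of the middle 300 bases of each peak were read, and none of the 4 strings contains another. The median length of the peaks compared was 881 bases. CAGCTG was found in 5 of the 7 regions printed above (at 2 places in that near Ric3), AP-1 strings stood in the Mtus1 region, and the Slc32a1 region held none of the 4. Away from start sites, AGATAA occurred in 15.7% [13.9, 17.7] of the 1520 higher peaks, in 11.1% of the 55679 peaks compared and in 11.1% of the 2027 lower ones. TAATTA occurred in 8.49% [7.13, 10.0], 5.63% and 5.77%, and TGACTCA in 20.1% [18.1, 22.2], 13.8% and 13.9%. CAGCTG occurred in 29.5% [27.3, 31.9], 26.1% and 26.8%. The higher peaks were called over all members, including subclusters 7 to 9, which carried marker genes of other cell types. Motif shares without those subclusters were not computed. Other strings that GATA factors bind were not searched. A match is a description of the letters and does not show that a factor is bound.

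In RNA, several factors of midbrain, diencephalic and hindbrain GABAergic neurons were higher in the GABAergic nuclei than in the Slc17a6 nuclei. Of the 33 genes of that list, 11 were high enough to be tested (a mean of at least 10 CPM over the classes), of which 6 were higher past 2-fold and 1 lower, with a median log2 ratio of CPM plus 1 of 1.13, against 0.03 over all genes tested. The background was 77 of 9380 genes higher (0.821%) and 93 lower (0.991%), and since the classes were chosen by RNA, nothing is read from the counts. Gata3, Tal1, Pax3 and Pax5 passed the filter only through the GABAergic class, so that they had to differ. The members higher past 2-fold were Gata3, Tal1, Pax3, Pax5, Meis2 and Zfpm2. Meis2 was higher still in the 318 neuron nuclei with no Gad UMI that met the other conditions, at 212 CPM [196, 230]. Its level over the GABAergic nuclei was 113 CPM, while Gata3 and Pax3 stood at 7.26 and 4.49 CPM in those 318 nuclei. Gata3, a zinc finger factor of brainstem GABAergic neurons, had 479 UMIs in 273 of the 684 nuclei (57.3 CPM [52.2, 62.6]) and 2 UMIs in the Slc17a6 nuclei. Tal1 had 184 UMIs (22.0 CPM [18.9, 25.4]) against 3. Pax3, a factor of the dorsal neural tube, had 404 UMIs in 111 nuclei (48.3 CPM [43.7, 53.2]) against 8, and Pax5, which marks the midbrain-hindbrain border, had 263 UMIs in 72 nuclei (31.4 CPM [27.8, 35.5]) against 29. The other 22 members were below the filter and are given as levels only. For 11 of them the CPM interval lay above that of the Slc17a6 nuclei, for 11 the intervals overlapped, and for 0 it lay below. Among the first were Gata2 at 9.68 (81 UMIs) against 0.129, Pax7 at 9.80 [7.80, 12.2] against 0.193, Sox14 at 9.09 [7.16, 11.4] against 0.644, and Otx2 at 9.92 [7.90, 12.3] against 1.48. Among those that overlapped were Pax6 at 5.74 against 9.02, Zic1 at 7.29 against 8.12, Zic2 at 4.42 against 4.45 and En1 at 3.71 against 2.77. The tested member lower past 2-fold was Foxp2, at 133 CPM [126, 141] against 387 [377, 397], and the intervals of the tested Tfap2b (a log2 ratio of -0.15) and Lhx1 (24.1 against 19.1 CPM) overlapped.

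A Gata3, Tal1 or Gata2 UMI was present in 357 of the 684 nuclei (52.2% [48.4, 56.0]), against 7 of the 1335 Slc17a6 nuclei (0.524%) and 9 of the 1700 oligodendrocyte nuclei. With Pax3, Pax7, Pax5 and Pax8 added, 478 nuclei (69.9% [66.3, 73.3]) had at least 1 UMI of the 7 genes, against 38 Slc17a6 nuclei (2.85%). In immune nuclei the shares were 5.20% and 5.82%. These shares are not thinned, and the median depths are those given above.

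**Figure D1:**
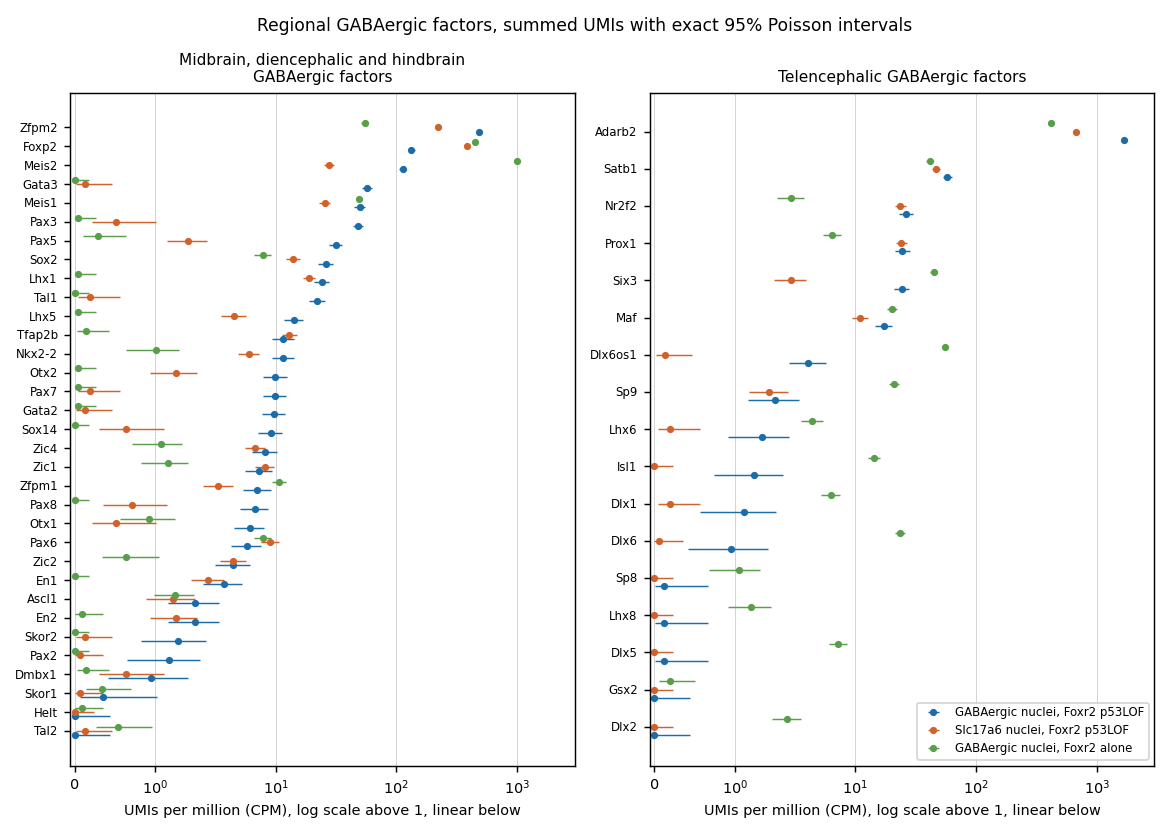
CPM of regional factors in the GABAergic nuclei of Foxr2 p53LOF (blue), the Slc17a6 nuclei of the same library (orange) and the GABAergic nuclei of Foxr2 alone (green), with exact 95% Poisson intervals on a scale that is logarithmic above 1 and linear below. In the left panel Gata3 stands at 57.3 in blue and at 0.129 and 0 in the others, and in the right panel Dlx6os1 stands at 4.06 in blue and at 55.0 in green.

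The Dlx genes of the ganglionic eminences were at or near the detection limit. Dlx1 had 10 UMIs in 7 nuclei (1.20 CPM [0.573, 2.20]), Dlx6 8, Dlx5 1 and Dlx2 0, where the floor of 3 counts over the class is 0.359 CPM and the exact 95% interval of a count of 0 reaches 0.441 CPM. Lhx6, a factor of interneurons from the medial ganglionic eminence, had 14 UMIs and Isl1 12. Dlx6os1 was at 4.06 CPM [2.82, 5.68]. A UMI of Dlx1, Dlx2, Dlx5, Dlx6 or Dlx6os1 was found in 22 of the 684 nuclei (3.22% [2.03, 4.83]), against 0.449% of the Slc17a6 nuclei. Of the 20 genes of the telencephalic list, 7 were tested and 2 were higher past 2-fold: Six3, a factor of the anterior brain, at 24.1 CPM [20.9, 27.7] against 2.90, and Adarb2, an RNA-binding protein of many interneurons, at 1673 CPM against 667. The log2 ratio of Six3 was 2.69, and 1.97 with every nucleus thinned to 1000 UMIs, and that of Adarb2 was 1.33, and 1.96 with the exclusions applied to both classes. Of the 7 tested, 0 were lower, and over all genes tested 0.821% were higher and 0.991% lower. Among the other tested members, Satb1 (57.7 CPM), Nr2f2 (26.3), Prox1 (24.5) and Maf (17.2) stood at 46.2, 23.5, 24.0 and 10.9 CPM in the Slc17a6 nuclei.

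The chromatin of many of these factor genes, which the rule did not use, was higher as well. The lists were chosen with earlier results of these data known, so their shares are a description. Of the 29 genes of the midbrain, diencephalic and hindbrain list with enough ATAC counts, 28 had a ratio above 0 and 18 (62.1%) an interval above 0, against 5.78% of all windows, and 9 were higher past 2-fold. Their median log2 ratio was 0.67, against 0.00 over all windows. Gata3 had 312 counts against 82 (55.0 and 7.34 per 1000000 peak counts), a log2 ratio of 2.91 [2.40, 3.44], close to the 2.90 of Slc32a1. Gata2 stood at 2.39 [1.93, 2.86] (1.39 with windows widened by 10 kb), Sox14 at 2.30 [1.06, 3.69] and Tal1 at 2.28 [1.84, 2.74]. Otx1, a factor of the anterior neural tube, followed with 1.75 [1.31, 2.20], Pax3 with 1.34 [0.63, 2.05] and the midbrain-hindbrain genes En1 and En2 with 1.23 [0.65, 1.81] and 1.10 [0.49, 1.71]. Gata2, Sox14, Otx1, En1 and En2 were below the RNA filter. Pax5 was higher by less, 0.57 [0.31, 0.84], and the only member with an interval below 0 was Foxp2, at -0.69 [-1.20, -0.20]. From the telencephalic list, Six3 had a log2 ratio of 1.95 [1.46, 2.46], and Dlx2 one of 1.13 [0.58, 1.69] although its RNA had 0 UMIs in both classes. Of the 20 genes of that list, 17 had a ratio above 0, 5 (25%) an interval above 0 and 2 an interval below 0, with a median log2 ratio of 0.40, so raised chromatin was not particular to the midbrain, diencephalic and hindbrain list.

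Several factors of thalamic and midbrain glutamatergic neurons were lower in RNA, in ATAC or in both. Of 23 genes, 11 were tested in RNA, of which 7 were lower past 2-fold and 0 higher, with a median log2 ratio of -1.27. Over all genes tested, 0.991% were lower and 0.821% higher. The other 4 tested genes, Ebf2, Rorb, Tcf7l2 and Tshz1, were level, with log2 ratios of 0.01, 0.00, -0.01 and -0.02. Members such as Lhx9 passed the filter only through the Slc17a6 class, and the count is a description. The exclusions by Slc6a3, Sim1, Nkx2-1 and Sfta3-ps were not applied to the Slc17a6 nuclei. With them applied to both classes, 65 of all 93 lower genes kept their call. Which members of this list did is not given here. Lhx9, a LIM homeodomain factor, had 6 UMIs in the GABAergic nuclei and 477 in the Slc17a6 nuclei. Ebf3 stood at 23.1 CPM [19.9, 26.6] against 106 [101, 111], Ebf1 at 54.9 (459 UMIs) against 190 (2949 UMIs) and Lmx1a at 5.02 [3.62, 6.79] against 24.8 [22.4, 27.4], a log2 ratio that went from -2.10 to -2.80 without subclusters 7 to 9. In ATAC, 10 of the 23 genes had an interval below 0 (43.5%, against 5.15% of all windows) and 0 above it, and 5 had a ratio above 0. Lhx9 was at -1.26 [-1.88, -0.69] (-0.46 with windows widened by 10 kb), Lhx2 at -1.09 [-1.64, -0.57] and Barhl2 at -1.07 [-1.72, -0.47]. Tcf7l2, broadly active in the thalamus and midbrain, was level in RNA (170 and 171 CPM) and ATAC (0.10 [-0.10, 0.30]).

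Beyond the lists, RNA and chromatin moved together over the called genes. With rule genes left out, 71 genes higher and 88 genes lower in RNA had enough ATAC counts. Of the 71 higher genes, 42 (59.2%) had an ATAC interval above 0 and 1 below, with a median log2 ratio of 0.43. Of the 88 lower genes, 44 (50%) had an interval below 0 and 1 above, with a median of -0.39. Over the 9115 genes within 2-fold in RNA, 5.02% had an interval above 0 and 4.68% one below. Both readouts come from the same nuclei, and the classes were chosen by RNA. Subclusters 7 to 9, described below, carried marker genes of other cell types, and 46 of all 77 higher genes kept their call without them. The part of those nuclei in the shares above was not tested. Adarb2 was higher in RNA, yet its ATAC log2 ratio was -0.04 [-0.34, 0.26]. Nrn1, which encodes a protein that promotes neurite growth, had 15 against 657 UMIs and the lowest ATAC log2 ratio of the 88 lower genes, -2.34 [-2.71, -1.99]. Cacna2d1, an auxiliary calcium channel subunit, was at 62.4 CPM [57.2, 68.0] against 937 [922, 952] and at -1.70 [-2.03, -1.38] in ATAC.

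**Figure D2:**
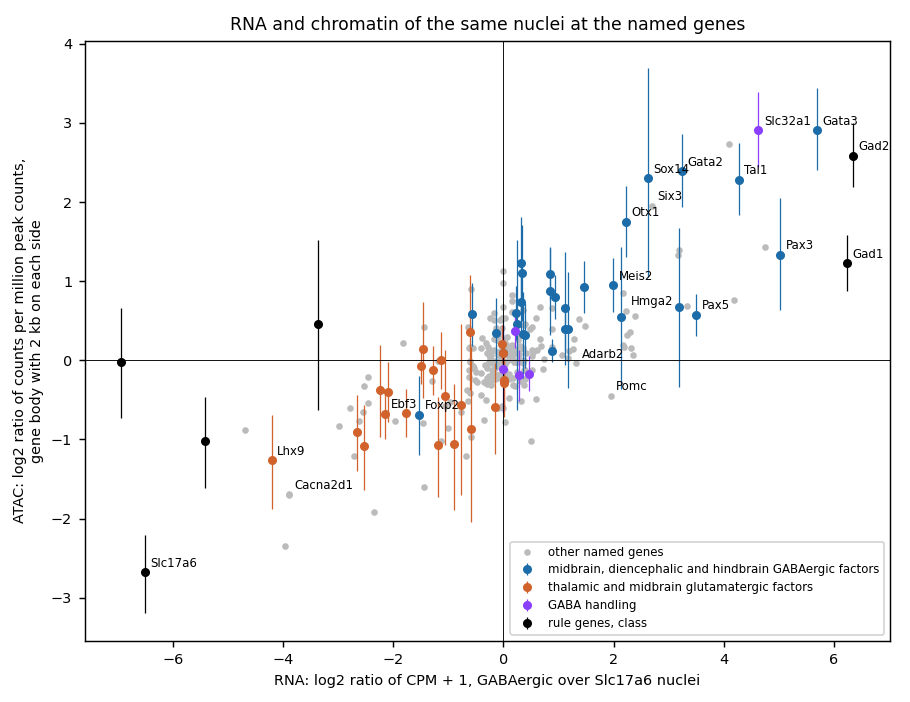
Each point is a named gene, with the RNA log2 ratio of CPM plus 1 (x axis) and the ATAC log2 ratio of its window (y axis, with 95% intervals for the coloured lists), GABAergic over Slc17a6 nuclei. Gata3, Tal1 and Slc32a1 lie at the upper right, with ATAC ratios of 2.91, 2.28 and 2.90, and Lhx9 and Slc17a6 at the lower left, while Pomc lies right of 0 in RNA and at -0.45 in ATAC.

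The highest-ranked genes outside the rule were the factors above with Gad1os, Mecom, Gm14204, Asic4, Slc30a3, Gm47757, Myo3a, Hmga2 and Rfx4. Gad1os overlaps Gad1, so its 217 UMIs may include reads of Gad1. Gm14204, with 273 UMIs, lies beside the start of Slc32a1 without overlapping that gene. Mecom, a zinc finger factor, had 250 UMIs in 31 nuclei, 20% of them in 1 nucleus. Slc30a3, a vesicular zinc transporter, was at 19.8 CPM [16.9, 23.1] against 1.29, with an ATAC log2 ratio of 1.39 [0.96, 1.82]. Asic4, an acid-sensing channel, was at 19.4 CPM [16.5, 22.6] against 1.03, with an ATAC log2 ratio of 0.69 [0.39, 0.98]. Among the 15 lowest were Adcyap1, B230323A14Rik, Lhx9, Nrn1, Cacna2d1, Gm3510, Gm2694, Cartpt, Calb1, Tmem163, Bdnf, Adamts2, Synpo2 and Ebf3. In this ranking the exclusions by Slc6a3, Sim1, Nkx2-1 and Sfta3-ps were again not applied to the Slc17a6 nuclei. Adcyap1, which encodes the neuropeptide PACAP, had 12 UMIs against 963. The growth factor Bdnf had 75 against 893, with an ATAC log2 ratio of -0.65 [-0.90, -0.41]. Calb1, a calcium-binding protein, had 53 against 734 and an ATAC log2 ratio of -1.21 [-1.86, -0.61].

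Among other genes of transmission, Abat, which breaks GABA down, was at 107 [100, 115] against 78.0 [73.7, 82.6]. Slc6a5, the glycine transporter of glycinergic neurons, had 36 UMIs in 20 nuclei against 1 UMI. Slc18a2, the vesicular carrier of monoamines, had 102 UMIs against 711, and Ddc, an enzyme of monoamine synthesis, 143 against 627. With the exclusions applied to both classes, the log2 ratio of Slc18a2 went from -1.83 to -0.95 and that of Ddc from -1.19 to -0.48, so that neither was past 2-fold. Of 17 GABA receptor subunits, 21 glutamate receptor subunits, 22 voltage-gated potassium channels and 7 genes of inhibitory postsynaptic scaffolds, 0 were past 2-fold, with median log2 ratios of -0.12, 0.08, -0.18 and 0.00. Over all genes the shares were 0.821% higher and 0.991% lower.

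Most neuropeptides were low and scattered. Of 25 on the list, 6 were tested, with Pomc and Sst (2) higher past 2-fold and Adcyap1 and Cartpt (2) lower. Over all genes tested, 0.821% were higher and 0.991% lower. Pnoc, the precursor of nociceptin, had 136 UMIs in 86 nuclei (16.3 CPM [13.6, 19.2]) against 2.51 CPM, and an ATAC log2 ratio of 0.35 [0.01, 0.69]. Sst had 209 UMIs in 52 nuclei, Penk 311 in 105, Npy 54 in 27 and Vip 21 in 11. The log2 ratio over the Slc17a6 nuclei was 1.14 for Sst and 0.74 for Penk. Pomc was higher past 2-fold in summed RNA, at 244 CPM against 62.4, but 1593 of its 2040 UMIs (78.1%) were in 1 nucleus. The share of nuclei with a Pomc UMI was 39.6% against 39.8% in the Slc17a6 nuclei, and 3.95% against 5.32% after thinning, below the 13.8% of immune nuclei. Hdc, the enzyme that makes histamine, likewise had 48 of its 51 UMIs in 1 nucleus.

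Subclustering of the 684 nuclei alone gave 12 subclusters of 7 to 172 nuclei, numbered by size. Their leading genes define them and are no result, and the chromatin at those genes is the measure the clustering did not use. Of the 60 leading genes, 42 had enough ATAC counts, 36 of these were higher in their own subcluster and 24 had an interval above 0 and 0 below. Subclusters 7 to 9, which carried marker genes of other cell types as described below, gave 12 of the 24 from 13 genes, and the other subclusters 12 from 29 genes. Over all windows and subclusters, 45.9% were higher and 3.58% had an interval above 0. The median log2 ratio over the 42 genes was 1.38. Without doublets 11 subclusters were found, and at resolutions of 0.3 and 0.8 there were 11 and 16.

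The factors were unevenly spread over the subclusters. Gata3 was spread widely, at 106 CPM [88.2, 127] in subcluster 3 (101 nuclei) and 76.1 [64.5, 89.1] in subcluster 1 (172 nuclei), but had 1 UMI in the 52 nuclei of subcluster 4. Subcluster 4, led by Vmn1r209, Gulo, Chrna5 and Ebf2, had Pax3 at 269 CPM [226, 318] in 37 of its nuclei and Pax7 at 98.9 [73.4, 130] in 28. Its ATAC log2 ratio over the other members was 2.76 [1.86, 3.60] at Ebf2, 1.83 [0.50, 2.97] at Pax3 and -1.80 [-4.09, -0.23] at Gata3. Subcluster 2 (112 nuclei), led by Mecom and Zic1, had both Pax3, at 168 CPM [144, 194], and Gata3, at 63.5 CPM, with an ATAC log2 ratio of 1.14 [0.49, 1.75] at Mecom. Subcluster 6 (50 nuclei), led by Pax5 and Pax8, had Pax5 at 255 CPM [222, 291] in 47 nuclei, 0 UMIs of Pax3 and Pax7, and an ATAC log2 ratio of 1.89 [1.41, 2.34] at Pax5. Subcluster 5 (50 nuclei) was led by Erg, Abi3bp and Pax6, with Pax6 at 1.45 [0.62, 2.20] in ATAC.

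Subcluster 3, led by Pomc, Ttn, Oacyl, Gli3 and Otx1, owed its Pomc lead to the nucleus with 1593 UMIs, and its ATAC log2 ratio at Pomc was -0.78 [-1.87, 0.16]. It had Otx1 in 21 nuclei with an ATAC log2 ratio of 1.07 [0.41, 1.70], and Meis2, a factor shared by striatal and midbrain neurons, at 308 CPM [276, 342] and 0.77 [0.14, 1.36]. Hdc led subcluster 1 from 2 nuclei. The 3 smallest subclusters held 15, 15 and 7 nuclei. Subcluster 10, with Ptprq, Lmx1b and Slc18a2, had Gad2 at 826 CPM but 0 Gad1 UMIs, Foxp2 at 1339 CPM, and an ATAC log2 ratio of 3.66 [2.49, 4.69] at Slc18a2. Subcluster 11 was led by Adamts19. Subcluster 12 was led by Lhx6, Enpep and Calb1 among others and held 9 UMIs of the 5 Dlx genes named above in 5 of its 7 nuclei, with Sst at 557 CPM [390, 771]. Of its 4 leading genes with enough ATAC counts, 1 was higher and 0 had an interval above 0. More Dlx UMIs lay elsewhere, 17 in 6 nuclei of subcluster 5, 13 in 2 nuclei of subcluster 9 and 11 in 6 nuclei of subcluster 1. Subcluster 12 rests on 7 nuclei.

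Subclusters 7, 8 and 9 carried marker genes of other cell types. Whether these genes came from the nuclei themselves was not tested. Subcluster 7 (47 nuclei, 18 doublet calls) was led by the immune genes Inpp5d, Cd86, Fyb, Adap2 and Ly86, and the 7 immune markers summed to 973 CPM there, against 23.0 to 122 CPM in the other subclusters. Subcluster 9 (23 nuclei, 21 doublet calls) was led by Mog and others, with 4926 CPM over the 6 oligodendrocyte markers. Subcluster 8 (40 nuclei, 18 doublet calls), led by Gm35330, Hmga2, Itprid1, Tnc and Glis3, had 983 CPM over the 6 oligodendrocyte markers, 716 over the 6 astrocyte markers, 517 over the markers of oligodendrocyte precursors and 114 over those of dividing cells, the highest such sum of the 12 subclusters. It had Hmga2 at 969 CPM [892, 1052] with an ATAC log2 ratio of 3.11 [2.53, 3.69], and Slc32a1 at 38.6 CPM [24.5, 57.9] against 82.5 in the other members. Over all 684 nuclei, oligodendrocyte markers summed to 515 CPM, against 439 CPM in the Slc17a6 nuclei. Immune markers summed to 126 and 109 CPM and astrocyte markers to 185 and 206 CPM. Of the 6, 5 and 5 tested markers of these lists, 0 were past 2-fold. The shares over all genes tested were 0.821% higher and 0.991% lower, so a count of 0 is near them.

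Without the 110 nuclei of subclusters 7 to 9, a choice made after the data were seen, 57 genes were higher past 2-fold, of which 46 were among the 77. The Slc17a6 nuclei were left whole, with their 99 doublet calls, so the sides were treated unequally. Hmga2 went from 76.7 to 5.89 CPM, against 15.7 in the Slc17a6 nuclei left whole, and Rfx4, Glis3, Tnc, Egfr, Neat1 and Notch1 also lost their call. The log2 ratios of Slc32a1 (4.73), Gata3 (5.79), Tal1 (4.39), Pax3 (5.14) and Pax5 (3.73) changed little in size, and those of ATAC were 3.06 at Slc32a1, 3.03 at Gata3 and 2.46 at Tal1.

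**Figure D3:**
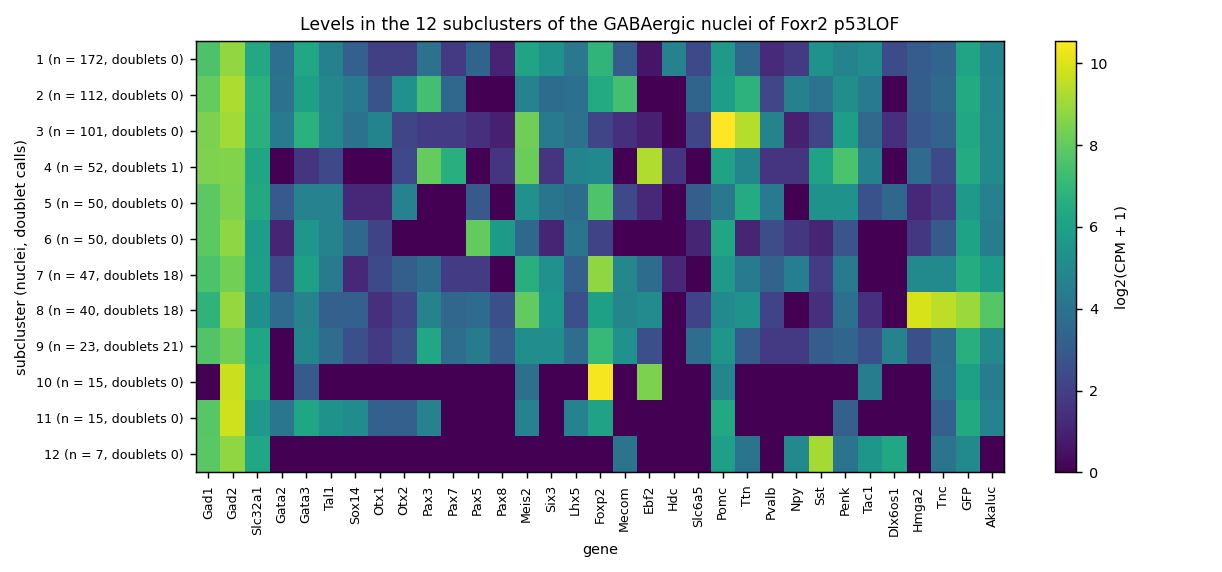
Levels as log2 of CPM plus 1 (colour) of selected genes (columns) in the 12 subclusters (rows, with nuclei and doublet calls). Pax5 is high in subcluster 6, Pax3 in 2 and 4, Ebf2 in 4 and 10, Hmga2, Tnc and GFP in 8, and Dlx6os1 and Sst in 12.

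Nucleus by nucleus, Pax3 and Pax5 RNA did not meet. Pax5 had a UMI in 0 of the 111 nuclei with a Pax3 UMI (interval up to 3.27%) and in 72 of the 573 without (12.6% [9.96, 15.6]). At the Pax5 window, chromatin counts were also lower in the nuclei with Pax3, a log2 ratio of -0.94 [-1.64, -0.29], while the intervals at Pax7 (1.16 [-0.54, 2.69]), Gata3 (-0.69 [-1.47, 0.01]) and Six3 (-0.87 [-1.93, 0.04]) included 0. Pax7 went with Pax3, with a UMI in 33 of the 111 nuclei (29.7% [21.4, 39.1]) and in 14 of the 573 (2.44% [1.34, 4.07]). Gata3 was found less often with Pax3, in 25 of 111 (22.5% [15.1, 31.4]) against 248 of 573 (43.3% [39.2, 47.5]). The nuclei with a Pax3 UMI were shallower, with a median of 9254 against 10916 UMIs. Six3 had a UMI in 3 of the 111 and in 120 of the 573. Tal1 went with Gata3, in 84 of 273 nuclei with a Gata3 UMI (30.8% [25.4, 36.6]) and 66 of 411 without (16.1%), and the former were deeper, with a median of 11769 against 9783 UMIs. Chromatin, scaled to the peak counts of each group, was higher in the nuclei with Gata3 RNA at Gata3 (0.74 [0.27, 1.21]), Tal1 (0.81 [0.33, 1.30]) and Gata2 (0.78 [0.29, 1.27]). It was near level at Pax5 (-0.10 [-0.51, 0.31]) and Meis2 (-0.19 [-0.71, 0.31]). At Slc32a1 it was higher as well (0.45 [0.02, 0.88]), while the intervals at Gad1 (0.19 [-0.29, 0.67]) and Gad2 (-0.15 [-0.57, 0.26]) included 0. Each factor with RNA had more chromatin counts at its own gene, with log2 ratios of 2.45 [1.48, 3.43] for Pax3, 1.84 [1.39, 2.26] for Pax5, 2.29 [1.78, 2.80] for Meis2 and 1.28 [0.66, 1.88] for Six3.

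The same rule applied to Foxr2 alone replicate 1 gave 2125 GABAergic nuclei, 36.5% of its neuron nuclei, against 24.7% in Foxr2 p53LOF. Their median was 7825 UMIs and 382 (18.0%) were called doublets. With 1 library of each genotype analysed, the position of the dissected tissue, the genotype, the library and the depth cannot be told apart. Of 9865 genes tested, 1355 (13.7%) were higher past 2-fold in Foxr2 p53LOF and 1765 (17.9%) lower. The transmitter markers were near level, with Slc32a1 at 79.4 CPM in Foxr2 p53LOF and 68.4 [64.9, 72.1] in Foxr2 alone, Gad1 at 234 and 213 and Gad2 at 469 and 372, the last 2 being rule genes in both.

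All 11 tested genes of the 12 on the list of striatal projection neurons were lower in Foxr2 p53LOF, with a median log2 ratio of -4.03 and a sum of 902 against 5313 CPM. Genes near 0 in one library passed the filter through the other and had to differ, in this and the following lists, so the counts are a description. Over all genes tested between the libraries, 13.7% were higher and 17.9% lower. Ppp1r1b, which encodes the dopamine-regulated phosphatase inhibitor DARPP-32, had 0 UMIs against 5570 (273 CPM). The opioid precursor Penk had 311 UMIs against 20185, and the dopamine receptor Drd1 35 against 1707. In the other direction, Gata3 and Tal1 had 0 UMIs in the 2125 nuclei of Foxr2 alone, where the floor of 3 counts is 0.147 CPM, and Pax3 had 1 and Pax5 6. Of the midbrain, diencephalic and hindbrain list, 10 were tested, of which 7 were higher and 2 lower, and 17 of the 33 were at or under the floor in Foxr2 alone. Meis2 was one of the 2, at 113 against 998 CPM, and Foxp2 was at 133 against 451. Of the telencephalic list, 11 were tested, of which 3 were higher and 4 lower, with a median log2 ratio of -0.21. Of the 6 tested thalamic and midbrain glutamatergic factors, 4 were higher and 0 lower, and 13 of its 23 genes were at or under the floor in Foxr2 alone.

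The 10 genes with the highest ratios over Foxr2 alone were Pomc, Gbp2, Iigp1, Hmga2, Gata3, Gm4951, Pax3, Otx2os1, Glra1 and Tnc. As given above, 78.1% of the Pomc UMIs were in 1 nucleus, although 271 of the 684 nuclei had a Pomc UMI, against 14 of the 2125 in Foxr2 alone. Without subclusters 7 to 9, Hmga2 was at 5.89 and Tnc at 8.45 CPM in Foxr2 p53LOF, against 0.294 and 0.734 in Foxr2 alone. Gbp2, Iigp1 and Gm4951, genes induced by interferon, were at 112, 87.3 and 57.3 CPM against 0.147, 0.196 and 0.196 in Foxr2 alone. The Slc17a6 nuclei of the same library had 86.9, 61.1 and 30.7 CPM and its immune nuclei 324, 469 and 495. Glra1, the glycine receptor subunit of the brainstem and spinal cord, had 505 UMIs in 231 nuclei (60.4 CPM [55.2, 65.9]) against 11 UMIs, and 42.0 CPM in the Slc17a6 nuclei. Otx2os1, which runs antisense at Otx2, had 591 UMIs against 15.

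**Figure D4:**
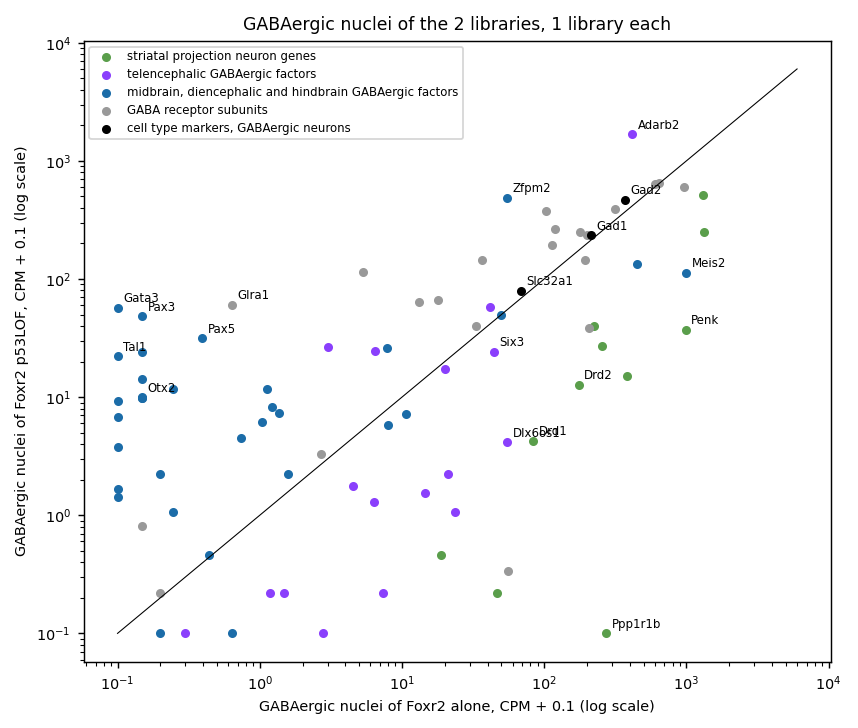
CPM plus 0.1 on log axes for genes of 5 lists in the GABAergic nuclei of Foxr2 alone (x axis) and of Foxr2 p53LOF (y axis), 1 library each; the line marks equal levels. Striatal genes lie below the line, with Ppp1r1b at 0 against 273 CPM, midbrain factors such as Gata3 and Tal1 lie at the left edge, and Gad1, Gad2 and Slc32a1 lie close to the line.

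RNA of the electroporated vectors was present in the GABAergic nuclei at levels below those of immune nuclei, which do not come from the electroporated progenitors. GFP was at 106 CPM [99.3, 113], against 82.5 in the Slc17a6 nuclei, 248 in immune and 232 in oligodendrocyte nuclei. After thinning, 9.65% of the GABAergic nuclei had a GFP UMI (57.5% unthinned), against 8.54% of Slc17a6, 19.5% of immune and 17.6% of oligodendrocyte nuclei. Foxr2, whose plasmid and endogenous copies cannot be told apart here, was at 12.1 CPM [9.83, 14.7], with a thinned share of 0.585% against 3.48% in immune nuclei, and Akaluc at 42.4 CPM [38.1, 47.1]. Thinned shares at or below those of the immune nuclei are not read as expression in these nuclei. The GABAergic nuclei were deeper, with median UMIs of 10634.5 against 2798, and the part of free RNA in each class was not tested.

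Chromatin counts in the 2 peaks on the Akaluc-PQR-GFP vector were found in 19 of the 684 nuclei (2.78% [1.68, 4.30]), against 9 of the 1335 Slc17a6 nuclei (0.674% [0.309, 1.28]), 3.00% of oligodendrocyte and 2.44% of immune nuclei. Of the 19, 11 were in subcluster 8 (27.5% of its 40 nuclei [14.6, 43.9]), where GFP RNA was at 493 CPM [438, 553] in 36 nuclei and Akaluc at 218 CPM [182, 259]. Outside subclusters 7 to 9, 5 of 574 nuclei had such a count (0.871% [0.283, 2.02]), within the interval of the Slc17a6 nuclei and below the shares of oligodendrocyte and immune nuclei. Subcluster 8 also had 45.0% doublet calls, a median of 14372.5 peak counts and the glial markers given above, and their part in its vector counts was not tested.

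**Figure D5:**
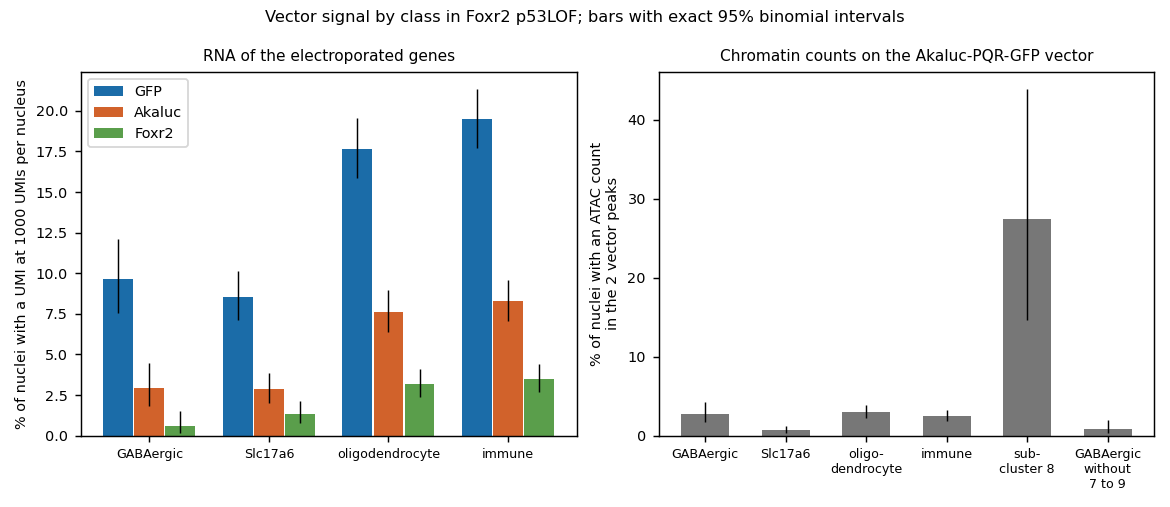
Left, share of nuclei of each class of Foxr2 p53LOF with a GFP, Akaluc or Foxr2 UMI at 1000 UMIs per nucleus; right, share with an ATAC count on the vector peaks; bars with exact 95% binomial intervals. GFP reaches 9.65% in GABAergic and 19.5% in immune nuclei, and the vector chromatin share is 27.5% in subcluster 8 and 0.871% without subclusters 7 to 9.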

How the data were processed

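Nuclei were profiled with 10x Multiome. Per the submitters' processing notes, the authors used Cell Ranger ARC 2.0.0 and mm10. The deposited matrices hold counts: UMI counts of 32285 genes and 13 vector rows, and ATAC counts in 112924 peaks for Foxr2 p53LOF. No library was pooled. In the matrices used, 0 columns of per-sample values were left out, and the matrix of Foxr2 alone replicate 2 was not used here. The members and gene lists (25 lists, 295 genes) were chosen with earlier results of these data known.

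Counts were summed per class and scaled to UMIs per 1000000 (CPM). Genes with a mean of at least 10 CPM over the 2 classes were compared as log2 of CPM plus 1. They were called past 2-fold with no condition on the interval, so genes with few UMIs can be called through counting error. Peaks and windows were called past 2-fold with an interval off 0. A ratio on this scale understates the change of low genes. Intervals are exact Poisson or exact binomial (Clopper-Pearson) 95% intervals and cover counting error only. With 1 library per genotype analysed, no test or p-value was computed, and cells were not used as replicates. Class totals were 8365322 and 15519048 UMIs. The floor of 3 counts is the upper limit that a count of 0 allows in 1 direction at 95%, and the interval of a 0, which leaves out both tails, reaches higher. Shares of nuclei were also taken after thinning each nucleus to 1000 UMIs.

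The peaks file gives only a start-site interval for each gene, so gene bodies came from GENCODE vM21 (GRCm38) with 2 kb added on each side, which departs from the planned use of bodies from the file. Peaks and windows needed 50 counts over both classes. Since 80.7% of the nonzero peak counts were even, as when both ends of a fragment are counted, intervals used the counts divided by 2. Doublets were called with Scrublet in scanpy 1.11.5 (expected rate 8%). Members were clustered with Leiden (leidenalg 0.10.2, 1500 variable genes, 20 components, 15 neighbours, resolution 0.5, seed 100). Immune and oligodendrocyte nuclei were chosen by marker share, with a neuron share under 0.2%, as a background for free RNA. Other tools were numpy 2.4.6, scipy 1.17.1, pandas 2.3.3, anndata 0.12.19, scikit-learn 1.9.0 and matplotlib 3.10.9. The scripts were tested on simulated data.

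Named genes are those of the lists, the 15 highest and 15 lowest by log2 ratio with rule genes left out, the 8 highest and 8 lowest peaks, the 10 highest and 10 lowest against Foxr2 alone, and the 5 leading genes of each subcluster. Genes named for a lost call were chosen after their values were seen. Alternatives were another Gad threshold, doublets removed, the same exclusions in both classes, another scaling, filter or thinning, the upper limits of the study, capped or stricter peak counts, wider windows and, added after seeing the data, leaving out subclusters 7 to 9. Some genes that the rule would name are not reported here or drawn in the figures, although counts over lists include them.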

Additional observations from a re-analysis of the deposited data

How the results depend on the processing

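No paired analysis was possible because the groups share only replicate number 1 and no test was made. Against the Slc17a6 nuclei, the 77 higher and 93 lower genes became 212 and 223 after thinning (54 of the 77 and 68 of the 93 kept their call), 191 and 291 with no filter on low genes, and 19 and 24 with a mean of at least 50 CPM. Without subclusters 7 to 9, a setting chosen after seeing the data, there were 57 higher (46 of them among the 77) and 150 lower genes (79 among the 93). In that setting the Slc17a6 nuclei were left whole. With the exclusions of the GABAergic class applied to the Slc17a6 nuclei too, there were 74 higher (65 shared) and 87 lower genes (65 shared), and 54 of 144 values moved. Removing doublets gave 72 (68 shared) and 100 (87 shared). The 1617 higher and 2109 lower peaks became 298 and 951 with counts capped at 1 per nucleus and peak, and 318 and 1101 with a minimum of 100 counts. The ATAC log2 ratio at Slc32a1 went from 2.90 to 1.44 with 10 kb windows, and the share of nuclei with a Slc32a1 UMI from 8.04% to 58.0% without thinning. Pomc, with most of its UMIs in 1 nucleus, changed from a log2 ratio of 1.95 to -0.31 under the upper limits of the study. Against Foxr2 alone, thinning turned the log2 ratio of Insyn1 to 0.0459 and that of Inpp5d to -0.0152 and the cause was not tested, while the counts of genes stayed between 1236 and 1510 higher and between 1751 and 1927 lower. The number of subclusters ranged from 11 to 16. The depth limits factors with few UMIs, and 1 analysed library per genotype leaves no estimate of the spread between animals.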
